A study of Gallus gallus with 12 samples.

Results

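The transcripts described here are those whose level in the whole chick lung climbed through a late window of development, with E16 above E14 and E18 above E16 on all arrays and E15 lying between E14 and E16 on average. Of the 21390 chicken transcripts on the array, 113 had this profile. They were chosen on the measured values themselves. A transcript was kept when all 12 of its log2 values were at least 8, every E16 value exceeded every E14 value, every E18 value exceeded every E16 value, the E15 mean lay between the E14 and E16 means, and the E16 mean minus the E14 mean and the E18 mean minus the E16 mean were both at least 0.4. For this reason their direction and size are a description of what was selected, and the counts of transcripts passing a test are not evidence for the pattern.

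RNA was taken from untreated whole lungs of white leghorn chick embryos at 4 stages, E14, E15, E16 and E18 (E for embryonic day), with 3 samples per stage and 1 NimbleGen array per sample. The series' design text calls the 3 samples biological replicates, but neither the labels nor the methods say whether a sample was 1 embryo or a pool, so that p-values measure only the spread between these samples. The deposited values are log2 signals, normalized by the authors across arrays, so that a difference of 1 is a ratio of 2 between signals.

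The chick lung completes its gas-exchange tissue before hatching. During the last part of incubation, air capillaries grow out from the parabronchi and become intertwined with blood capillaries, the epithelium thins and begins to produce surfactant, and a basement membrane shared by epithelium and endothelium forms the blood–gas barrier, for which type IV collagen provides the strength. Expression in whole lung mixes epithelium, endothelium, mesenchyme, smooth muscle and blood, and in such bulk tissue more cells of a type and more RNA per cell cannot be told apart.

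The array lists transcripts by Ensembl identifier only. Neither the deposited values nor the chicken gene table used here pairs these identifiers with gene symbols, and none of the 113 was found in that table. The roles of the transcripts, and the cell types they come from, were therefore not examined, and the tissue label was not checked against marker genes. Only 2 identifiers are printed, chosen by rule: ENSGALT00000001051, with the largest difference between E18 and E14, and ENSGALT00000006710, with the smallest spread between arrays of a stage. Other transcripts are described by their place in the order of that difference, and those were picked out after their values were seen.

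The 12 arrays did not have equal spread. The SD of the log2 values over all transcripts was between 2.58 and 2.62 on 8 arrays, while it was 2.44 on E15 replicate 3, 2.51 on E16 replicate 1, and 2.38 and 2.22 on replicates 2 and 3 of E18. Array medians lay between 10.56 and 10.76, and the random-sequence control between 4.40 and 5.17. The difference between E18 replicates 3 and 1 was the lower the brighter the transcript at E14 (r −0.54, rho −0.42 across all transcripts, which are not independent replicates). Among those at 8 or above on every array r was −0.21 and rho −0.009, so that by rank there was almost no relation. Among the 113 selected here they were −0.49 and −0.47. Values that rest on these arrays are given beside the results below.

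Taken 1 at a time over all transcripts, the order of E16 above E14 was met by 2482 and that of E18 above E16 by 1523, while a first step of at least 0.4 was met by 2790, a second step of that size by 5296 and the place of the E15 mean by 3665. Applied in the order of the rule, the conditions narrowed the list as follows. Of 13860 transcripts at 8 or above on all arrays, 1756 had every E16 value above every E14 value, 244 also had every E18 value above every E16 value, 187 of these had the E15 mean in between, 133 also had a first step of at least 0.4, and 114 also had a second step of that size. Of the 114, 1 was excluded by identifier in the rule itself. Taken singly, the condition that kept the most transcripts out was the separation of E18 from E16, which 90 transcripts failed while meeting the other 5. The minimum level alone excluded 66, the separation of E16 from E14 alone 35, the place of the E15 mean alone 27, the first step 20 and the second step 19.

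The borders of the selection cut through a continuous range. The dimmest value of any selected transcript was 8.04, while the nearest transcript excluded on this condition alone reached 7.99. The smallest first step kept was 0.4001 and the largest left out 0.3948. The smallest second step kept was 0.4221 and the largest left out 0.3968. The smallest gap between the lowest E16 and the highest E14 array was 0.0003 among the selected and −0.0016 just outside, and between the lowest E18 and the highest E16 array it was 0.0063 among the selected and −0.0011 just outside. At these borders the order of arrays was thus settled by differences far smaller than the spread between replicates.

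Over the 113 transcripts, the median log2 value on the 3 arrays was 10.56, 10.58 and 10.42 at E14, 10.76, 10.69 and 10.94 at E15, 11.61, 11.47 and 11.12 at E16, and 12.37, 12.43 and 12.49 at E18. The 4 stages did not overlap in this median. The median of the stage means was 10.48 at E14, 10.71 at E15, 11.38 at E16 and 12.44 at E18. Over all 21390 transcripts the median difference between E18 and E14 was −0.17, and over the 13860 transcripts at 8 or above it was −0.27. These medians depend on the scaling of the arrays. Over all transcripts the median was −0.046 after median centring and 0.004 after cyclic loess, another normalization.

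**Figure D1:**
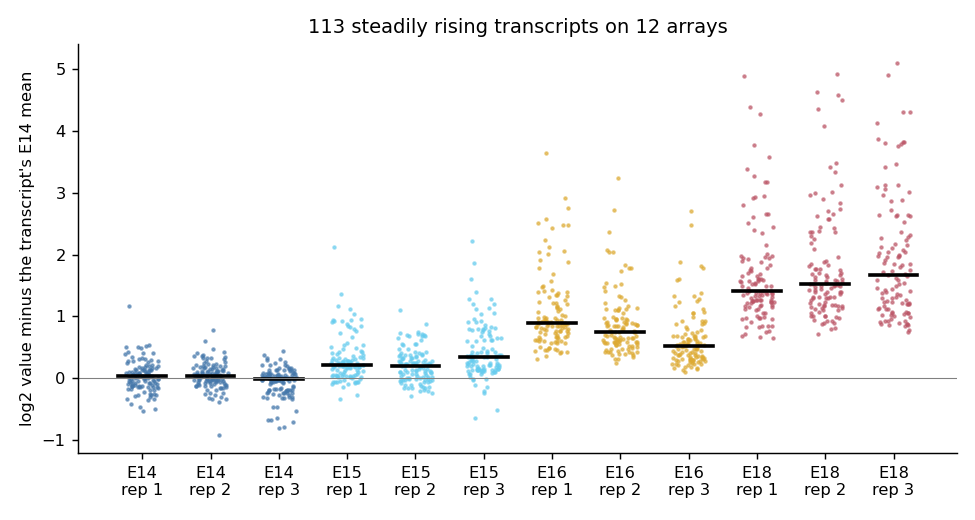
Log2 value of each of the 113 transcripts on each of the 12 arrays, set relative to its E14 mean, with arrays in order of stage and replicate on the x axis. Points are transcripts and black bars are medians. The median was 1.41, 1.52 and 1.67 above the E14 mean on the 3 E18 arrays, and 0.89, 0.75 and 0.52 above it on the 3 E16 arrays.

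The size of the climb ran over a wide range. The difference between E18 and E14 was between 0.85 and 4.97 on the log2 scale, with quartiles of 1.25, 1.57 and 2.07. As a ratio of signals, this was between 1.81-fold and 31.4-fold, with a median of 2.97-fold. Most of the transcripts stood between 1 and 2 log2 units, since 75 had a difference of 1 to 2, 31 of 2 or more, 10 of 3 or more, and 7 of less than 1.

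In the limma fit, a mean per stage fitted to all 12 arrays with variances moderated across transcripts, 113 of the 113 had an adjusted p of at most 0.05 for E18 against E14, where 6.83% of all transcripts did in this direction. By the moderated F-test across the 4 stages 93 of 113 passed. Of all 21390 transcripts, 2.16% passed with E18 above E14. Adjusted p-values of the 113, corrected by Benjamini-Hochberg over all transcripts, ran from 0.000271 to 0.0476 for E18 against E14 and from 0.000741 to 0.179 across the stages. Since the selection used the same arrays and the same differences, nothing is read from these shares. For E18 against E14 the count was 44 when only the arrays of these stages were fitted, with 211 calls in either direction over all transcripts, against 4155 on all arrays. The F-test count was 39 without E18 replicate 2, and 61, 58 and 54 without E14 replicates 1, 2 and 3. Over all transcripts the F-test made 224 calls without E18 replicate 2 and 343, 305 and 268 without E14 replicates 1, 2 and 3, against 943 on all arrays, so that calls fell over the whole array.

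The transcript with the largest difference, ENSGALT00000001051, climbed at each stage by amounts well beyond the spread of most stages. Its log2 values were 9.44, 9.21 and 8.85 at E14, 10.29, 9.88 and 9.93 at E15, 12.82, 12.42 and 10.76 at E16, and 14.06, 14.09 and 14.28 at E18. No 2 stages overlapped, and the arrays of a stage were within 0.6 of each other except at E16, where replicate 3 lay more than 1.5 below the others. The stage means were 9.17 ± 0.29, 10.03 ± 0.22, 12.00 ± 1.09 and 14.14 ± 0.12 (SD, n = 3 each) in order of stage. E18 exceeded E14 by 4.97 (SE 0.44, limma adjusted p = 0.00054), a 31.4-fold ratio of signals. Among all 21390 transcripts 9 had a larger difference in this direction. By E15 it had covered 17.4% of the difference and by E16 56.9%. The steps taken singly did not pass, at 2.83 for E16 against E14 (adjusted p = 0.0561) and 2.14 for E18 against E16 (adjusted p = 0.0900). The step of 0.87 from E14 to E15 had an unadjusted limma p of 0.0764.

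The transcript with the smallest spread, ENSGALT00000006710, had a high signal throughout and a difference close to the smallest of the group. Its log2 values were 13.15, 13.05 and 13.07 at E14, 13.16, 13.33 and 13.31 at E15, 13.56, 13.64 and 13.41 at E16, and 14.07, 14.02 and 13.97 at E18. Here too no 2 stages overlapped, but E15 replicate 1, at 13.16, was barely above the highest E14 array, at 13.1546. This gap was smaller than the SD between arrays of a stage. The stage means were 13.09 ± 0.06, 13.27 ± 0.09, 13.54 ± 0.12 and 14.02 ± 0.05 (SD, n = 3 each) in order of stage. E18 exceeded E14 by 0.93 (SE 0.11, limma adjusted p = 0.00215), a 1.90-fold ratio. By size of the difference it stood at place 110 of the 113, and 3790 of all transcripts had a larger one, but only 1.69% of all transcripts had a smaller SD between arrays of a stage, which was 0.084 for this one. Its steps were 0.45 for E16 against E14 (adjusted p = 0.190) and 0.48 for E18 against E16 (adjusted p = 0.114).

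**Figure D2:**
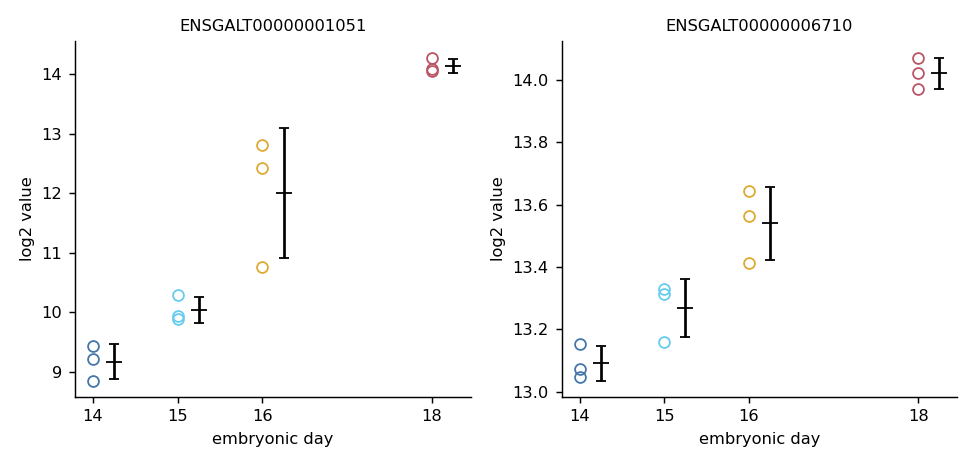
Log2 values of ENSGALT00000001051 and ENSGALT00000006710 on each array (points) against embryonic day, with the mean and SD of the 3 arrays of a stage. The E18 mean exceeded the E14 mean by 4.97 and by 0.93.

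Some other transcripts in the group had E18 arrays close to each other. The transcript next in size had 9.51, 8.99 and 9.19 at E14, 10.18, 9.94 and 9.43 at E15, 11.47, 11.28 and 10.48 at E16, and 13.63, 13.60 and 13.54 at E18. Its lowest E18 array exceeded its highest E16 array by 2.07, the widest such gap among the 113, and its E18 mean exceeded its E14 mean by 4.35. The transcript at place 11 had 15.12, 15.17 and 15.18 at E18, against 12.48, 11.86 and 12.16 at E14, a difference of 2.99. Both were called across the stages, and both had E18 arrays within 0.1 of each other.

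On the deposited scaling, the group's climbs from E14 to E16 and from E16 to E18, each over 2 days, were of like size. On that scaling the transcripts at 8 or above had median steps of −0.045 and −0.22, so their general level fell more over the second step. The rule required at least 0.4 for each step, which limits how unequal the steps and the shares below can be. Their sizes are thus a description of what was selected. The first step had a median of 0.72 (range 0.40 to 2.83) and the second a median of 0.78 (range 0.42 to 2.70). The second was the larger in 60 transcripts and the first in 53. By E16 the median transcript had covered 48.2% of its difference between E18 and E14 (range 20.4% to 78.6%), with 69 of the 113 between 40% and 60%, 27 below and 17 above. After cyclic loess this median share was 41.0%. The sizes of the 2 steps went together only loosely across the transcripts (Pearson's r 0.43, Spearman's rho 0.30, n = 113; both are taken from the same E16 arrays, and transcripts are not independent replicates).

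**Figure D3:**
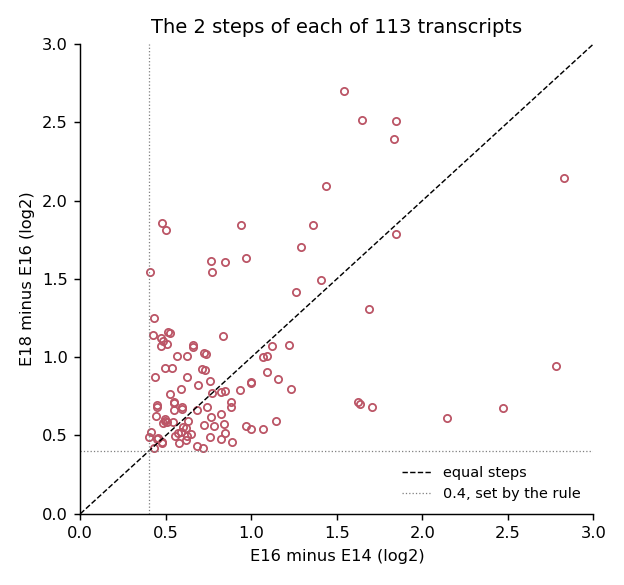
Difference between the E18 and E16 means (y axis) against the difference between the E16 and E14 means (x axis), both in log2 units, with 1 point for each of the 113 transcripts and a dashed line of equal steps; dotted lines mark the 0.4 that the rule required. The second step was the larger in 60 transcripts and the first in 53.

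The ends of this range were occupied by transcripts of quite different shape. The transcript with the smallest share by E16, 20.4%, had 10.37, 10.27 and 10.05 at E14, 11.06, 10.62 and 10.44 at E16 and 12.90, 12.61 and 12.19 at E18, so that most of its climb came after E16. The transcript with the largest share, 78.6%, had 10.66, 8.58 and 9.25 at E14, 12.07, 11.86 and 11.98 at E16, and 12.41, 12.21 and 13.31 at E18. In this second case the 3 arrays at E14 were spread over more than the distance between the E16 and E18 means, so its share is poorly determined.

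Within the first step, more of the climb fell between E15 and E16 than between E14 and E15. The difference between the E15 and E14 means had a median of 0.26 (range 0.005 to 1.11), and that between the E16 and E15 means a median of 0.47 (range 0.015 to 2.12). The interval from E15 to E16 was the larger in 85 transcripts and that from E14 to E15 in 28. By E15 the median transcript had covered 16.1% of its full difference (range 0.46% to 37.1%). For 26 transcripts this share was under 10%, and for 20 it was over 25%.

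The rule fixed only the mean of the E15 arrays, not the order of single arrays. Every E15 array lay above every E14 array in 30 of the 113 transcripts, where 3.7% of all transcripts had this order, and every E16 array above every E15 array in 61, where 7.82% of all did. Both held in 16 transcripts, which makes 16 whose 4 stages were fully separated on all 12 arrays. In 11 transcripts no E15 array exceeded the highest E14 array, so that the climb over the first day cannot be told from replicate spread there. In the other transcripts it was not settled either, since none on the whole array passed for E15 against E14 by limma. For the 16 and the 11, the matching numbers over all transcripts were not counted. Because the E15 mean was part of the selection, all counts of this paragraph are given as a description.

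Single steps seldom passed after adjustment over all transcripts. For E16 against E14, 5 of the 113 passed by limma, where 0.0982% of all transcripts passed in this direction, and 93 of the 113 had an unadjusted p under 0.05. For E18 against E16, 12 of the 113 passed, where 0.206% of all did, and 103 had an unadjusted p under 0.05. Over all 21390 transcripts, 845 and 2264 had an unadjusted p under 0.05 for these steps in this direction. The rule required both steps to be at least 0.4 with separated arrays, so nothing is read from the counts of the 113. The counts past the adjusted threshold moved when single arrays were left out, between 0 and 17 for the first step and between 0 and 80 for the second. The calls over the whole array moved with them. For the first step, the 17 without E18 replicate 3 went with 193 calls in either direction over all 21390 transcripts, against 23 on all arrays. For the second step, the 80 without E18 replicate 1 went with 9523 calls over all transcripts, against 70 on all arrays, and the 0 without E16 replicate 2 or E18 replicate 2 went with 3 and 6. These shifts are therefore not particular to the 113.

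On the neighbouring days none of the 113 passed by limma. For E15 against E14, 0 of the 113 passed, where 0% of all transcripts did in this direction, and 8 of the 113 had an unadjusted p under 0.05. For E16 against E15, 0 of the 113 passed, where 0.00468% of all did, and 63 had an unadjusted p under 0.05. Over all transcripts, 102 had an unadjusted p under 0.05 for E15 against E14 in this direction, and 573 for E16 against E15. The place of the E15 mean was part of the selection, so nothing is read from these counts of the 113. In total 14 of the 113 passed for at least 1 of the steps of 2 days, 3 of them for both, and 99 for neither. The matching numbers over all transcripts were not counted, so nothing is read from these either. The 5 that passed for E16 against E14 stood at places 7, 11, 13, 15 and 19 in the order of the full difference.

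The 3 arrays of E16 stood in a regular order in these transcripts. Replicate 1 was the highest of the 3 in 82 of the 113 (72.6%), replicate 2 in 21 and replicate 3 in 10, and replicate 3 was the lowest in 89 (78.8%). The full order, replicate 1 above 2 above 3, occurred in 71. Among the 13860 transcripts at 8 or above, replicate 1 was the highest in 28.8% and replicate 3 the lowest in 38.7%. E16 replicate 1 had a smaller SD over all transcripts than the other E16 arrays, while replicates 2 and 3 had SDs of 2.61 and 2.59; between this last pair, replicate 2 was the higher in 92 of the 113 (81.4%), against 57.9% of transcripts at 8 or above.

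To place each array on a common scale, its value was expressed as a percentage of the way between the E14 mean (0%) and the E18 mean (100%) of the same transcript. The median position over the 113 was 59.4%, 51.1% and 33.3% on E16 replicates 1, 2 and 3, and 16.1%, 10.5% and 21.8% on E15 replicates 1, 2 and 3. The E16 samples thus were far apart on this course, and E16 replicate 3 stood nearer to E15 replicate 3 than to E16 replicate 1. On the E18 arrays the median position was 97.7%, 101.2% and 99.2%, and on the E14 arrays 2.02%, 1.73% and −0.92%.

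The same order was seen in transcripts not in the group. The rule turned upside down, with E16 below E14 and E18 below E16, was met by 214 transcripts, none of them among the 113 but measured on the same arrays. Their median position was 47.8%, 38.5% and 32.3% on E16 replicates 1, 2 and 3. In 133 of them (62.1%) E16 replicate 1 was the nearest of the E16 arrays to E18, and in 136 (63.6%) replicate 3 was the nearest to E14. In a falling transcript these are the lowest and the highest E16 array. Among transcripts at 8 or above, replicate 1 was the lowest in 35.8% and replicate 3 the highest in 30.1%. On E18 the falling transcripts were less even than the rising ones, at 70.7%, 102.0% and 126.4% on replicates 1, 2 and 3. Whether the order of the E16 samples comes from their exact age, from the tissue taken or from the arrays was not tested.

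**Figure D4:**
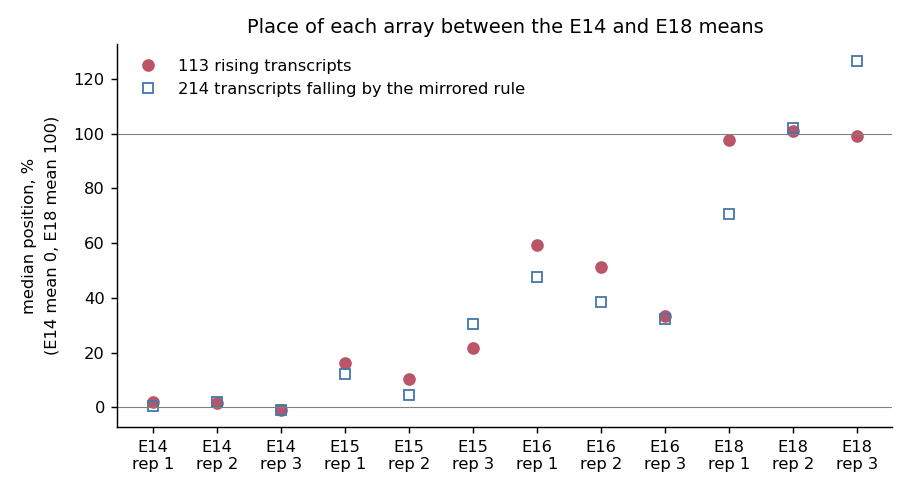
Median position of each array between the E14 mean (0%) and the E18 mean (100%), for the 113 steadily rising transcripts and for the 214 that met the mirrored, falling rule, with the 12 arrays on the x axis in order of stage and replicate. On the E16 arrays the rising transcripts lay at 59.4%, 51.1% and 33.3% and the falling ones at 47.8%, 38.5% and 32.3%.

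The 3 E18 arrays, which differed most from one another over all transcripts, were closer together in this group. In 63 of the 113 they lay within 0.5 of each other. The median SD between the E18 arrays was 0.24 in the group and 0.38 among transcripts at 8 or above. At the other stages the order was the reverse, with median SDs in the group of 0.19 at E14, 0.19 at E15 and 0.26 at E16, against 0.11, 0.15 and 0.12 among transcripts at 8 or above. The rule compares the lowest E18 array with the highest E16 array, so these SDs are not independent of it. Over all stages, the pooled SD within a stage had a median of 0.26 (range 0.08 to 0.87), against 0.25 among transcripts at 8 or above.

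E18 replicate 3, the array with the smallest SD, enters the selection and the E18 mean of each of the 113. It was the highest E18 array in 46 of them and the lowest in 45. The difference between E18 replicates 3 and 1 had a median of 0.06 in the group (range −0.75 to 2.94) and of −0.47 among transcripts at 8 or above, and replicate 3 exceeded replicate 1 in 61 of the 113 (54.0%), against 20.7% of transcripts at 8 or above. It was 1 or more in 18 transcripts, 0.5 or more in 29, and −0.5 or less in 6. Without E18 replicate 3 the rule was met by 180 transcripts, 108 of them among the 113.

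The 18 transcripts with E18 replicate 3 at least 1 above replicate 1 are described beside the other 95. This split itself raises the spread at E18 and so bears on the pooled SD, the share covered by E16 and the F-test calls, and nothing is read from those values. Their median values on E18 replicates 1, 2 and 3 were 10.43, 11.01 and 12.18, their median E14 mean was 9.02, and their median difference between E18 and E14 was 1.73. In the other 95 the median E14 mean was 10.75 and the median difference 1.54. The share covered by E16 was 36.4% in the 18 and 50.9% in the 95, and the median pooled SD was 0.54 in the 18 and 0.24 in the 95. Across the stages 4 of the 18 were called, and 89 of the 95. The small group was also higher on E15 replicate 3, another array with a small SD, by a median of 0.83 over the mean of the other E15 arrays. Across the 113, the excess on E15 replicate 3 and the difference between E18 replicates 3 and 1 had r 0.58 and rho 0.46, against 0.55 and 0.39 across the transcripts at 8 or above.

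The most extreme of the 18 stood at place 14 by its full difference. Its values were 8.48, 8.29 and 8.36 at E14, 8.43, 8.38 and 9.98 at E15, 9.52, 9.27 and 9.16 at E16, and 9.75, 11.04 and 12.69 at E18. Here E15 replicate 3 lay above all 3 E16 arrays, and the E18 arrays were spread over 2.94. It had the largest pooled SD of the group, 0.87, and was not called across the stages (limma adjusted p = 0.0968).

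**Figure D5:**
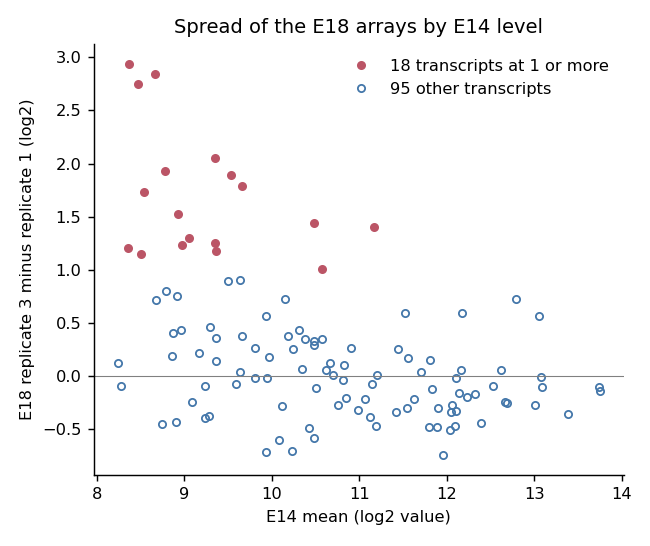
Difference between E18 replicates 3 and 1 (y axis, log2 units) against the E14 mean (x axis, log2 units), with filled points for the 18 transcripts at 1 or more and open points for the other 95. The median difference was 0.45 in transcripts with an E14 mean under 10, 0.007 from 10 to 12 and −0.16 at 12 or above.

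The level at E14 went together with most of these measures. The 44 transcripts with an E14 mean under 10 had a median difference between E18 and E14 of 1.99, a median pooled SD of 0.43 and a median difference between E18 replicates 3 and 1 of 0.45, and 31 of them were called across the stages. In the 45 with an E14 mean from 10 to 12 these values were 1.51, 0.24 and 0.007, with 40 called. In the 24 with an E14 mean of 12 or above they were 1.13, 0.18 and −0.16, with 22 called. Among the 113, dimmer transcripts thus had the larger differences and the larger spread. The calls rest on the arrays used for the selection and were not counted by level over all transcripts, so nothing is read from them. Across the 113, the E14 mean and the difference between E18 and E14 had r −0.52 and rho −0.63, a pair that shares the E14 arrays, and of the 20 transcripts with the largest differences 15 had an E14 mean under 10.

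Some of the 113 moved almost in parallel over all 12 arrays. Of the 6328 pairs, 8 had a difference whose SD over the 12 arrays was under 0.1 and 350 one under 0.2, where the median pair had 0.49 and the closest 0.081. In all, 69 transcripts had at least 1 such partner at under 0.2. All 113 were chosen to climb over the same stages, so part of this likeness was set by the rule. Pairs of other transcripts were not counted, and nothing is read from these numbers. Several Ensembl transcripts may belong to 1 gene, so the number of genes behind the 113 is not known and the transcripts are not independent of each other.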

How the data were processed

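Total RNA of 12 whole chick lung samples, 3 at each of 4 stages, was made into double-stranded cDNA, labelled and hybridised to NimbleGen arrays. The authors normalized the scans by RMA, a method that usually corrects background, equalizes probe signals between arrays and summarizes the probes of a transcript, and deposited 1 log2 value per transcript and array. The deposited values do not have equal distributions, with array SDs between 2.22 and 2.62, and the settings used are not given in the sources used here. The array's annotation release and probes per transcript are not given in the sources used here. The random-sequence control was left out of all counts and tests, and no normalization or filter was added.

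Groups were taken from the labels. The log2 values of all 12 arrays were modelled by stage in limma 3.58.1 (R 4.3.3), which leaves 8 residual degrees of freedom. Stages were compared by the moderated F-test and by contrasts. P-values were adjusted by Benjamini-Hochberg across 21390 transcripts, and those of at most 0.05 were called. An exact permutation test of 3 arrays against 3 cannot give a two-sided p below 0.1 and was not used. Selection and description used Python 3.11.15 with numpy 2.4.6 and pandas 2.3.3, and figures matplotlib 3.10.9. The fit was tested on simulated data.

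The rule for the 113 transcripts, and 11 lists of marker genes, were chosen with earlier results of these data known. The lists hold 191 genes, none of which could be matched, so they were not applied. Without symbols, the rule for named transcripts was the largest difference between E18 and E14 and the smallest pooled SD. Alternatives were other normalizations, thresholds, arrays left out, weights on arrays, a block for the replicate number and the methods' one-way ANOVA. A fit on 8 arrays of like SD was added after seeing the data. It leaves replicate 1 as the only E18 array, so nothing is read from its counts of calls.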

Additional observations from a re-analysis of the deposited data

How the results depend on the processing

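The median difference between E18 and E14, 1.57, lay between 1.42 and 1.65 with any array left out and was 1.97 after cyclic loess. Median centring and cyclic loess raised the median difference of all transcripts by 0.12 and 0.17, from −0.17 as deposited. The median of the 113 was 1.69 after the centring. The median share covered by E15, 16.1%, lay between 12.4% and 18.9% with an array left out, and that by E16, 48.2%, between 41.6% and 56.0%, and it was 41.0% after cyclic loess. The rule, which gave 113 transcripts, gave 261 after cyclic loess (105 shared with the 113). It gave 160 after median centring (110 shared) and 164 after quantile normalization (108 shared). On means alone with overlap allowed it gave 280, and with steps of at least 0.6 it gave 53. It gave between 106 and 180 with an array left out, 180 being without E18 replicate 3. On the 8 arrays of like SD, an alternative chosen after seeing the data, it gave 259 (76 shared). There E18 is replicate 1 alone, so the separation of E18 from E16 rests on 1 array.

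Of the 113, those called across the stages numbered 93, and 40 at an adjusted p of at most 0.01, 57 on the 8 arrays of like SD, and between 39 and 112 with an array left out. The calls over all 21390 transcripts, in either direction, moved too, with 943 on all arrays, 154 at 0.01, 976 on the 8 arrays, 224 without E18 replicate 2 (39 of the 113) and 8558 without E18 replicate 1 (112 of the 113). For E18 against E14 the count of 113 was 44 when only these stages were fitted (211 over all transcripts, against 4155). It was between 96 and 113 with an array left out. Over all transcripts these fits gave between 945 calls (without E14 replicate 3, 96 of the 113) and 11895 (without E18 replicate 1, 113 of the 113). For E16 against E14 the count of 5 was 0 at 0.01, 0 with only these stages, 10 after cyclic loess and 10 after median centring. It was 15 with an intensity trend and robust variances, 17 without the dimmest transcripts (14260 tested) and 88 with array weights. Over all transcripts these settings gave 1, 54, 106, 66, 90, 92 and 1916 calls, in the same order, against 23. With an array left out the count was between 0 and 17, the 17 being without E18 replicate 3 (193 over all transcripts). For E18 against E16 the count of 12 was 0 at 0.01, 0 with only these stages, 21 without the dimmest transcripts, 38 after cyclic loess, 110 with array weights, and between 0 and 80 with an array left out. Over all transcripts these settings gave 4, 0, 149, 244 and 14338 calls, in the same order, against 70, and 9523 without E18 replicate 1 (80 of the 113). For E16 against E15 the count of 0 was 22 with array weights (463 over all transcripts, against 1) and between 0 and 1 with an array left out. For E15 against E14 it was 0 under each alternative run. The array weights did not converge, so the counts made with them are not a sound estimate. On the 8 arrays of like SD, E18 is replicate 1 alone, so nothing is read from the counts made there.

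With the replicate number as a block, the counts were 70 across the stages, 3 for E16 against E14 and 4 for E18 against E16, with 396, 15 and 15 over all transcripts. The numbers name samples of separate stages, and deviations of same-numbered samples correlated between −0.616 and 0.685, so they were not taken as a pairing. Precision is limited throughout by the 3 arrays per stage.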

Other observations

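Transcripts of 3 other shapes on the same arrays give the setting of the steady climb. The mirrored rule, a fall at each step, was met by 214 transcripts. It was run only on the deposited scaling, on which the median of all transcripts was lower at E18 than at E14, so the number is not set against the 113. All of these groups were chosen on the values described. Their E18 mean was below their E14 mean by a median of 1.40 on the log2 scale. They had covered 15.7% of their fall by E15 and 40.7% by E16, and in 144 of the 214 the interval from E15 to E16 was larger than that from E14 to E15. E18 replicate 3 lay below replicate 1 by a median of 0.82 in them.

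Climbs at only 1 of the steps were also looked for, on the deposited scaling alone. On it the transcripts at 8 or above had a median step of −0.22 from E16 to E18. A climb complete by E16 is therefore meant on that scaling. In 200 transcripts at 8 or above the climb came after E16, with every E18 array above every E16 array, a mean step of at least 0.4 and the E16 mean within 0.2 of the E14 mean. The median difference between E18 and E14 was 0.74 in these. In 246 the climb was complete by E16, with every E16 array above every E14 array, a mean step of at least 0.4 and the E18 mean within 0.2 of the E16 mean. Their median difference between E18 and E14 was 0.63. By the moderated F-test across the stages, 31 of the 200 and 45 of the 246 were called. Of all transcripts, 2.16% were called with E18 above E14. Both groups were chosen on the same arrays, so nothing is read from these counts. E18 replicate 3 minus replicate 1 had a median of 0.56 in the late group and −0.46 in the early group. Among transcripts at 8 or above the median was −0.47, so the early group was near the general value and the late group above it. These shapes are not equally placed with regard to the array of smallest SD, and the part of that array in them was not tested.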
